A study of Mus musculus with 10 samples.

Results

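The 10 genes described here build, lengthen, activate and place polyunsaturated fatty acids, and were taken by Ensembl identifier from the 33538 human genes of the count table. FADS1 (ENSG00000149485), FADS2 (ENSG00000134824) and FADS3 (ENSG00000221968) belong to the fatty acid desaturase family. ELOVL2 (ENSG00000197977), ELOVL4 (ENSG00000118402), ELOVL5 (ENSG00000012660) and ELOVL7 (ENSG00000164181) are fatty acid elongases. ACSL1 (ENSG00000151726) and ACSL4 (ENSG00000068366) are long-chain acyl-CoA synthetases, and LPCAT3 (ENSG00000111684) is a lysophospholipid acyltransferase. The genes were chosen by name and pathway and not by a measured value, though with earlier results of these data known. All 10 passed the filter on low counts, which 16013 genes passed in all.

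Each library is a flank tumour sample grown from DAOY cells, an established line of human medulloblastoma, in nude mice, which accept human grafts. Control mice ate ordinary chow (3 libraries), the DHA oil group received an oil supplying docosahexaenoic acid (DHA, 3 libraries), and the fish oil group (4 libraries) was read as the arm given DHA together with eicosapentaenoic acid (EPA). All groups carried the same cell line in the same host and were sampled at day 30. The age of the mice is not given in the sources used here, all tumours came from 1 cell line, and the labels do not say that libraries came from separate mice. The p-values thus reflect only the spread between these samples, which may in part be technical.

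Mammalian cells make long-chain polyunsaturated fatty acids from dietary precursors by alternating desaturation and elongation. FADS2 performs the first desaturation and FADS1 the later one that yields arachidonic acid and EPA, while ELOVL5 and ELOVL2 add carbons between and after these steps on the way to DHA. Acyl-CoA synthetases then activate the free acids, and acyltransferases such as LPCAT3 place them in membrane phospholipids. In liver, diets rich in polyunsaturated fatty acids are known to lower transcription of FADS1 and FADS2 through the sterol-regulated factor SREBP-1, so that the end products restrain their own synthesis. The comparisons asked whether transcripts of this route differed in tumours of mice given preformed DHA, or DHA with EPA.

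Total counts per library lay between 6187116 and 10035702. On the first principal component of all genes (26.4% of the variance), fish oil replicates 4 (52.9) and 2 (21.4) stood away from the other 8 libraries (-19.1 to 1.71), so results are also given without this pair. Control replicate 1 stood apart on the 21 genes called lower with both oils, at a mean log2 CPM of 5.43 against 2.94 and 3.53 in the other controls. The identifiers of 209 listed symbols for host cell types, medulloblastoma and neighbouring lipid pathways could not be matched to the table. Markers of the labelled tumour, of muscle, fat, vessel and blood cells and the other genes of the route were therefore not analysed here, and their part in the results was not tested. In bulk tumour RNA, fewer cells that express a gene and less of its RNA per cell cannot be told apart.

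For none of the 10 genes did a difference between diets pass the test. edgeR's quasi-likelihood test called 0 of 10 in each of the 4 comparisons, 0 of 10 had an unadjusted p under 0.05, and DESeq2 and limma-voom also called 0 of 10. Over all 16013 genes, the share called by edgeR was 0% for DHA oil against control, 0.00624% for fish oil against control, 0% for fish oil against DHA oil and 0.131% for both oils against control. The share at an unadjusted p under 0.05 was 2.74%, 3.48%, 4.84% and 2.62% in the same order. Levels overlapped between the groups for 10 of 10 genes in each comparison, where 10.6%, 3.74%, 4.95% and 1.12% of all genes did not overlap. Diet means of a gene differed by between 1.02-fold (ELOVL2) and 1.2-fold (ACSL4).

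Each interval holds for a single gene and comparison in the fit of all libraries, and the set is not a joint bound on missed differences. All 40 intervals, 95% intervals of the log2 fold change for 10 genes in 4 comparisons, lay within a 2-fold difference in either direction, and 34 of the 40 lay within 1.5-fold. The widest bound was for ELOVL7, at 1.68-fold higher with DHA oil than in control. Intervals that reached past 1.5-fold belonged to ELOVL7 (in 3 comparisons), ACSL4 (in 2) and ELOVL4 (in 1). With each library left out in turn, 40 of the 40 log2 fold changes moved by over 1.5 times or changed sign at least once. ELOVL7 in DHA oil against control, for example, went from 0.18 to 0.40 without control replicate 3. The intervals describe the full fit only, and their limits with a library left out were not examined.

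**Figure D1:**
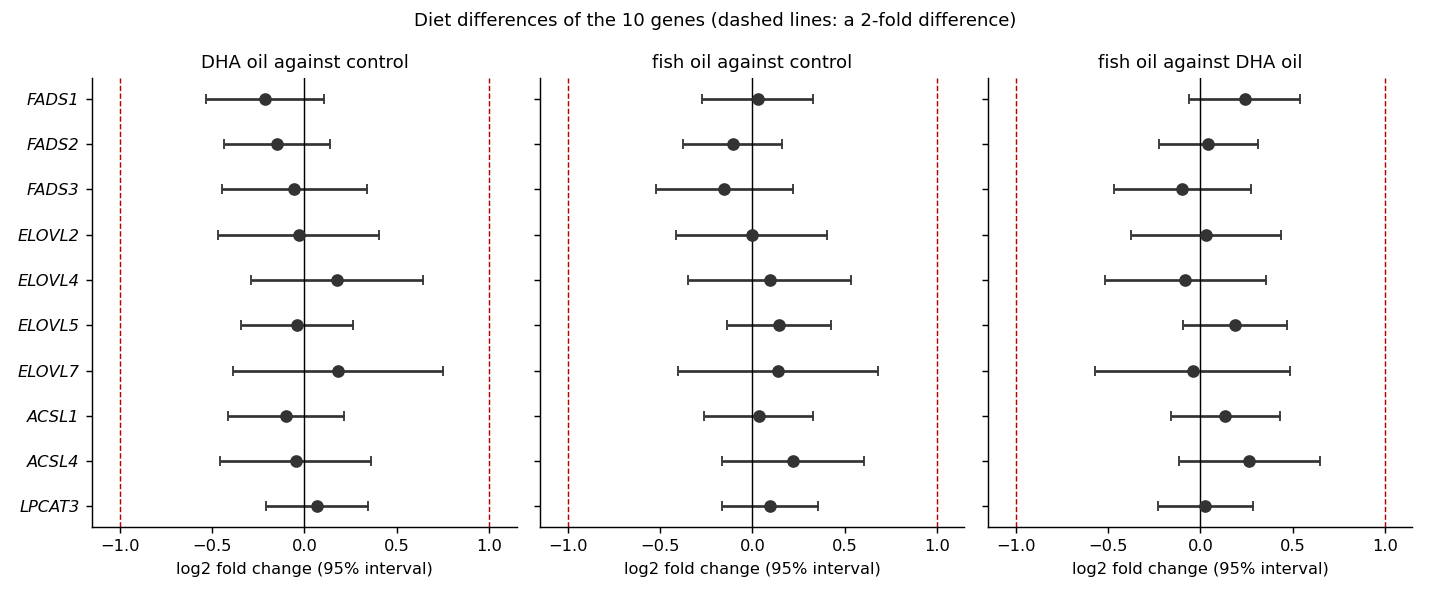
Log2 fold change (x axis) of each of the 10 genes (y axis) in 3 comparisons, as points with 95% intervals from edgeR, the dashed lines marking a 2-fold difference. All intervals cross 0 and none reaches the dashed lines.

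FADS2, the desaturase of the first step, was measured at 187, 179.6 and 244 CPM (counts scaled to the library total) in control replicates 1 to 3. It stood at 169, 197 and 184 CPM in the DHA oil libraries and at 203, 189.8, 174 and 188 CPM in the fish oil libraries. Control replicate 3 alone was high, and every other library lay between 169 and 203 CPM. The group means were 204 ± 34.9 CPM for control (SD, n = 3), 183 ± 13.8 CPM for the DHA oil group (SD, n = 3) and 189 ± 11.9 CPM for the fish oil group (SD, n = 4). The log2 fold change against control was -0.15 (95% interval -0.44 to 0.14) in the DHA oil tumours and -0.11 (-0.38 to 0.16) in the fish oil tumours, and it was 0.04 (-0.23 to 0.31) between the oils. With both oils together against control it was -0.13 (-0.37 to 0.11), and without control replicate 3 it was 0.02.

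FADS1, the desaturase that forms arachidonic acid and EPA, was measured at 95.9, 83.6 and 115 CPM in control. Its levels were 77.9, 95.6 and 80.7 CPM in DHA oil and 94.6, 99.3, 87.8 and 119 CPM in fish oil. In DHA oil 2 of 3 libraries lay below every control, while the fish oil libraries spread over the control range and past it in replicate 4. The means were 98.3 ± 16.0 CPM for control (SD, n = 3), 84.7 ± 9.51 CPM for the DHA oil group (SD, n = 3) and 100.1 ± 13.3 CPM for the fish oil group (SD, n = 4). FADS1 had the smallest p of the 10 genes in DHA oil against control (log2 fold change -0.21, 95% interval -0.53 to 0.11, unadjusted p = 0.178 in edgeR). That value was -0.0835 without control replicate 3 (unadjusted p = 0.615) and -0.32 without control replicate 2 (unadjusted p = 0.0731). FADS1 also had the smallest p between the oils, 0.24 higher in fish oil on the log2 scale (-0.06 to 0.54, unadjusted p = 0.110 and adjusted p = 0.875 in edgeR). Without fish oil replicates 2 and 4 that difference was 0.10, and the difference of fish oil from control turned from 0.03 to -0.11.

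FADS3, a family member known to act on sphingoid bases, had levels of 21.9, 23.9 and 26.1 CPM in control and 21.6, 23.4 and 24.1 CPM in DHA oil. The fish oil libraries held both ends of its range, with 28.9 CPM in replicate 1 and 16.3 CPM in replicate 4, and 20.8 and 20.5 CPM in replicates 2 and 3. The SD was 5.28 CPM in fish oil (n = 4) against 2.09 CPM in control (n = 3) and 1.28 CPM in DHA oil (n = 3). Fish oil against control gave -0.15 (95% interval -0.52 to 0.22), and 0.04 without fish oil replicates 2 and 4.

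**Figure D2:**
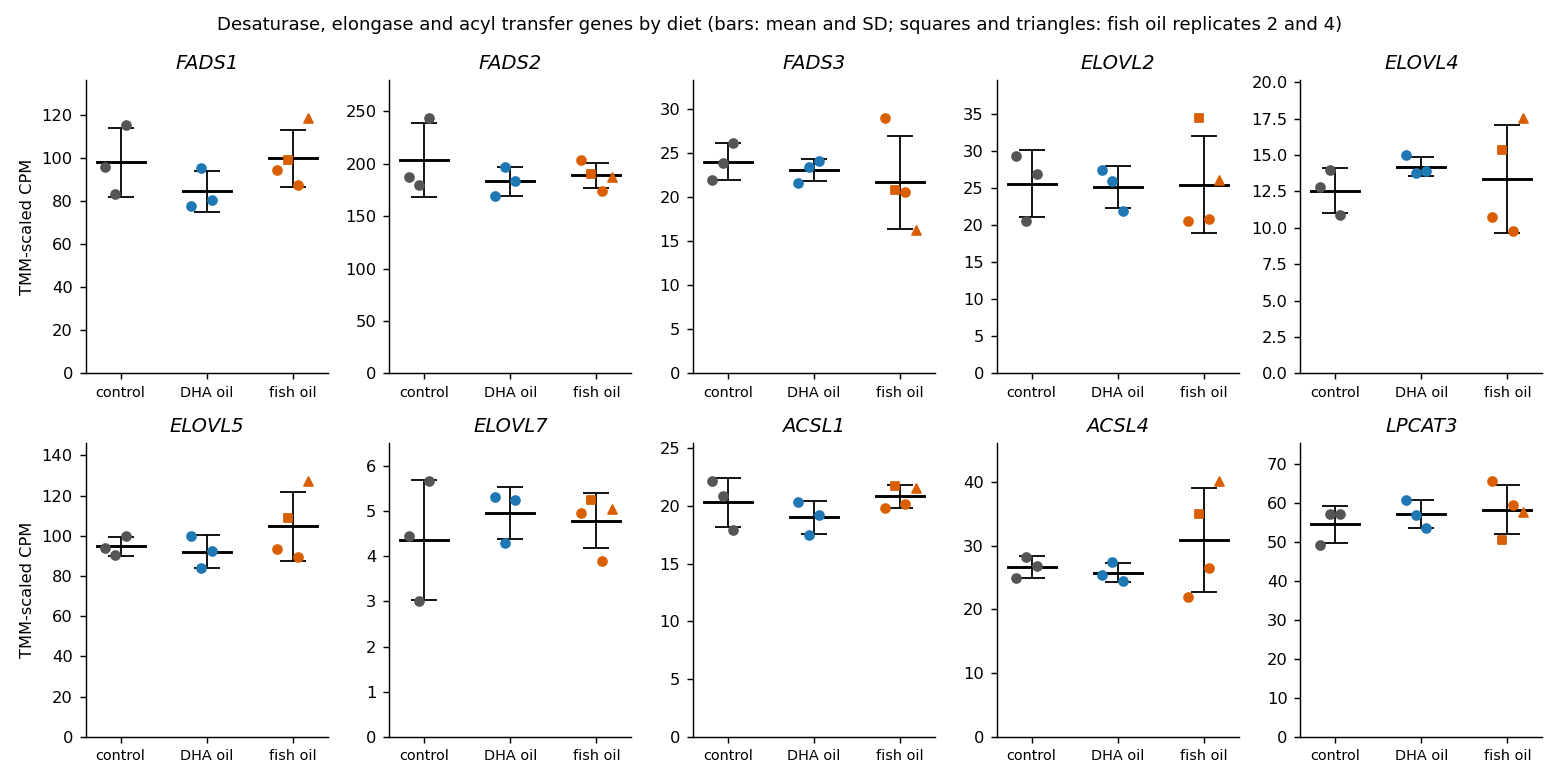
Level of each gene in TMM-scaled CPM (y axis, from 0) in every library, by diet (x axis), with the mean and SD of each group as bars. Groups overlap for every gene, and fish oil replicates 2 (squares) and 4 (triangles) are the highest libraries for ELOVL5, ELOVL4 and ACSL4.

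Of the elongases, ELOVL5 acts on the shorter polyunsaturated intermediates. It was measured at 94.0, 90.4 and 99.8 CPM in control, 100.1, 83.8 and 92.5 CPM in DHA oil, and 93.5, 109, 89.3 and 127 CPM in fish oil. Fish oil replicates 2 and 4 were the highest libraries, and the other 8 lay between 83.8 and 100.1 CPM, a 1.19-fold range. The log2 fold change of fish oil was 0.15 (95% interval -0.14 to 0.43) against control and 0.19 (-0.10 to 0.47) against DHA oil, and without fish oil replicates 2 and 4 these became -0.05 and -0.01. DHA oil against control gave -0.04 (-0.34 to 0.26).

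ELOVL2, which elongates longer polyunsaturated chains toward DHA, showed the most alike diet means of the set. They were 25.6 ± 4.54 CPM for control (SD, n = 3), 25.1 ± 2.85 CPM for the DHA oil group (SD, n = 3) and 25.5 ± 6.52 CPM for the fish oil group (SD, n = 4). Single libraries were less alike, from 20.6 CPM in control replicate 2 and fish oil replicate 1 to 34.5 CPM in fish oil replicate 2. The interval of both oils against control ran from -0.39 to 0.35 on the log2 scale around a value of -0.02. Without fish oil replicates 2 and 4, ELOVL2 was 0.31 lower in fish oil than in control on the log2 scale (unadjusted p = 0.0967 in edgeR).

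ELOVL4, known for making very long chains in retina, brain and skin, was measured at 12.8, 14.0 and 10.9 CPM in control and 15.0, 13.8 and 13.9 CPM in DHA oil. Fish oil replicates 1 and 3, at 10.7 and 9.75 CPM, were below every other library, and replicates 2 and 4, at 15.3 and 17.5 CPM, were above every other library. The fish oil group thus held both extremes and a mean of 13.3 ± 3.72 CPM (SD, n = 4). Between the oils the log2 fold change was -0.08 (95% interval -0.52 to 0.35). It was -0.47 without fish oil replicates 2 and 4, with an unadjusted p of 0.0228 and an adjusted p of 1.00 in edgeR.

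ELOVL7, which is known for longer saturated acyl chains, had few reads, between 23 and 51 per library. Its levels ran from 3.00 CPM in control replicate 2 to 5.66 CPM in control replicate 3, so the control group alone spanned the whole range. The log2 fold change against control was 0.18 (95% interval -0.39 to 0.75) in the DHA oil tumours and 0.14 (-0.40 to 0.68) in the fish oil tumours, and without control replicate 2 both turned, to -0.02 and -0.07.

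Among the genes of acyl activation, ACSL4 prefers arachidonic acid and related polyunsaturated substrates. Its levels were 25.0, 28.3 and 26.8 CPM in control and 25.5, 27.4 and 24.5 CPM in DHA oil, while the fish oil libraries gave 21.9, 35.0, 26.5 and 40.1 CPM. Fish oil replicates 2 and 4 were again above every other library, and fish oil replicate 1 was below every other library. The means were 26.7 ± 1.66 CPM for control (SD, n = 3), 25.8 ± 1.48 CPM for the DHA oil group (SD, n = 3) and 30.9 ± 8.21 CPM for the fish oil group (SD, n = 4). ACSL4 had the largest difference of the set, 0.27 higher in fish oil than in DHA oil on the log2 scale (95% interval -0.12 to 0.65, unadjusted p = 0.159 in edgeR). Without fish oil replicates 2 and 4 that difference was -0.09, and the difference of fish oil from control turned from 0.22 to -0.14. Leaving out fish oil replicate 1 alone moved both differences the other way. The difference became 0.40 against DHA oil (unadjusted p = 0.0243 and adjusted p = 0.414 in edgeR). Against control it became 0.35 (unadjusted p = 0.0444 and adjusted p = 0.531 in edgeR).

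ACSL1, a synthetase of broad substrate range, had the narrowest range of the set. Its levels ran from 17.5 CPM in DHA oil replicate 2 to 22.1 CPM in control replicate 1, a 1.27-fold range over 10 libraries. The coefficient of variation over the libraries of all diets was 7.77%, beside a counting error of 7.64% at its mean of 171.5 reads. Its biological coefficient of variation as fitted by edgeR was 0.121, and that of LPCAT3 was lower at 0.116. That fit borrows from other genes, so these values are not the measured spread of either gene alone. DHA oil against control gave -0.10 (95% interval -0.41 to 0.22) and fish oil against control 0.04 (-0.26 to 0.33) on the log2 scale.

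LPCAT3, which transfers polyunsaturated acyl chains to lysophospholipids, was measured at 49.1, 57.1 and 57.3 CPM in control, 60.8, 56.9 and 53.6 CPM in DHA oil, and 65.5, 50.4, 59.6 and 57.5 CPM in fish oil. Control replicate 1 was the lowest library. Above every control lay 3 of 4 fish oil libraries, replicate 4 only just (57.5 against 57.3 CPM in control replicate 3). Both oils against control gave a log2 fold change of 0.08 (95% interval -0.16 to 0.32), which had an unadjusted p of 0.475 in edgeR. Without control replicate 1 it was 0.00614. Fish oil against control gave 0.0946, and 0.20 without fish oil replicates 2 and 4 (unadjusted p = 0.115 in edgeR).

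Directions across the set were mixed. In DHA oil against control 3 of 10 genes had a positive and 7 a negative log2 fold change, with a median of -0.04 beside 0.00 over all 16013 genes. In fish oil against control 7 were positive and 3 negative, with a median of 0.06 beside 0.01 over all genes. These comparisons share the control libraries. The median size of the log2 fold change was 0.08 over the set and 0.12 over all genes for DHA oil, and 0.10 and 0.13 for fish oil. Without fish oil replicates 2 and 4, the sign turned for 6 of 10 genes in fish oil against control and for 4 of 10 in fish oil against DHA oil.

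The order of the diet means, from low to high, was DHA oil, control, fish oil for FADS1, ELOVL5, ACSL1 and ACSL4. For FADS2 and ELOVL2 it was DHA oil, fish oil, control, and for ELOVL4 and ELOVL7 it was control, fish oil, DHA oil. FADS3 ran from fish oil through DHA oil to control, and LPCAT3 from control through DHA oil to fish oil. No neighbours in any of these orders differed beyond their spread.

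Levels varied between libraries of the same diet. For ACSL4, with the largest ratio of diet means at 1.2, the fish oil libraries spanned 1.83-fold, and for FADS3 they spanned 1.77-fold beside a ratio of diet means of 1.11. The biological coefficient of variation fitted by edgeR had a median of 0.145 over the set and 0.158 over all genes tested. It was below the median of the 500 genes nearest in level for 4 of the 10 genes. Fish oil replicate 4 was the highest of 10 libraries for FADS1, ELOVL4, ELOVL5 and ACSL4 and the lowest for FADS3, at 1.30, 1.32, 1.37, 1.54 and 0.689 times the median of the 8 other libraries. Fish oil replicate 2 was at 1.44 times that median for ELOVL2 and 1.35 times for ACSL4. For FADS2 the same pair lay at 1.02 and 1.01 times the median.

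**Figure D3:**
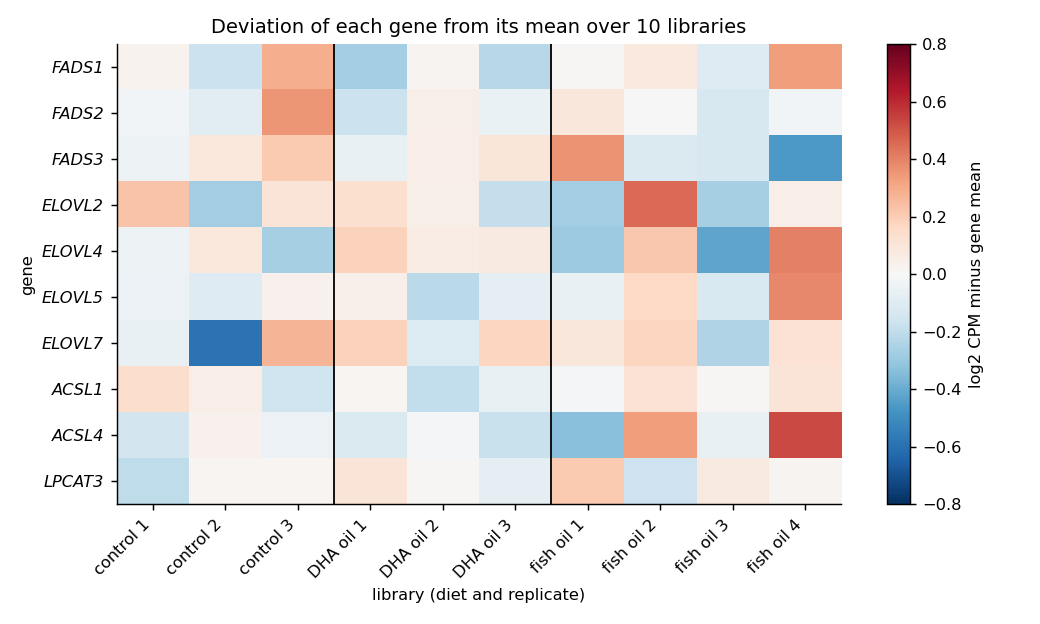
Log2 CPM of each gene (rows) in each library (columns, grouped by diet) minus the gene's mean over the 10 libraries, as colour from -0.8 to 0.8. No diet forms a block of one colour, and fish oil replicate 4 is the highest library for ACSL4, ELOVL4, ELOVL5 and FADS1 and the lowest for FADS3.

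Whether genes of the route vary together between libraries was examined over all 45 pairs. No pair passed Benjamini-Hochberg adjustment by permutation test (100000 resamples, two-sided), and 5 of 45 had an unadjusted p under 0.05. FADS1 and FADS2, neighbours in one gene cluster, had a Pearson r of 0.686 (permutation p = 0.0227, adjusted 0.341) and a Spearman rho of 0.697 (permutation p = 0.0307, adjusted 0.559) over 10 libraries. Without the 2 libraries farthest from the median of FADS1 the r was 0.859, and as deviations from the diet means it was 0.719. It was 0.918 without fish oil replicates 2 and 4 (permutation p = 0.00289, adjusted 0.130). With each library left out in turn the r of FADS1 with FADS2 ran from 0.555 to 0.884. FADS3, the other desaturase of the set, had an r of -0.260 with FADS1 (permutation p = 0.476) and 0.471 with FADS2 (permutation p = 0.173). How reads shared by neighbouring genes were counted is not known here.

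The r of the remaining 4 pairs with an unadjusted permutation p under 0.05 changed to differing degrees when fish oil libraries were left out. ACSL4 and FADS3 had an r of -0.806 (permutation p = 0.00559, adjusted 0.252) and a rho of -0.564 (permutation p = 0.0951, adjusted 0.559). The r was -0.299 without the 2 libraries farthest from the median of FADS3, which were fish oil replicates 1 and 4. It was -0.494 without fish oil replicates 2 and 4 (permutation p = 0.214), and ran from -0.845 to -0.580 with each library left out in turn. Leaving out libraries at the ends of a range can itself weaken r, so these values do not settle whether the relation rests on them. ACSL4 and ELOVL5 had an r of 0.767 (permutation p = 0.0142, adjusted 0.320) and a rho of 0.297 (permutation p = 0.405, adjusted 0.798). Without the 2 libraries farthest from the median of ELOVL5, which were fish oil replicates 2 and 4, that r was -0.288. The positive r was thus not seen among the other libraries. ACSL4 and ELOVL4 had an r of 0.675 (permutation p = 0.0319, adjusted 0.359) and a rho of 0.612 (permutation p = 0.0658, adjusted 0.559). Their r was 0.688 without the 2 libraries farthest from the median of ELOVL4, which were fish oil replicates 1 and 3, and 0.240 without fish oil replicates 2 and 4. FADS3 and ELOVL5 had an r of -0.653 (permutation p = 0.04999, adjusted 0.370) and a rho of -0.333 (permutation p = 0.347, adjusted 0.743). Their r was -0.193 without fish oil replicates 1 and 4, the farthest from the median of FADS3, and 0.152 without fish oil replicates 2 and 4.

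**Figure D4:**
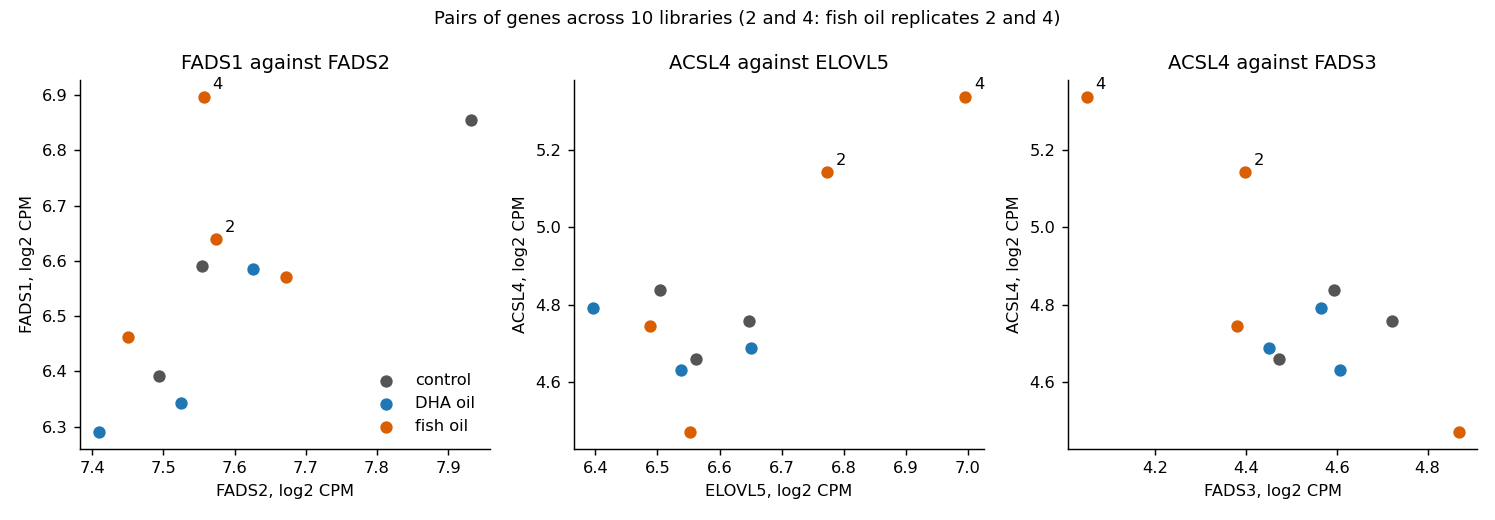
Log2 CPM of FADS1 against FADS2, ACSL4 against ELOVL5 and ACSL4 against FADS3, with 1 point per library coloured by diet. The r of FADS1 with FADS2 is 0.686, and fish oil replicates 2 and 4 lie above the other 8 in ACSL4.

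Ratios within a library do not depend on how libraries are scaled. The ratio of FADS1 to FADS2 counts was 0.512, 0.466 and 0.474 in control, 0.460, 0.485 and 0.440 in DHA oil, and 0.465, 0.523, 0.503 and 0.633 in fish oil. The fish oil libraries reached higher, with replicate 4 above all others, but the groups overlapped. Between the oils the log2 ratio differed by 0.19 (exact permutation p = 0.114, two-sided, adjusted 0.870 over 12 tests of 3 ratios). The ratio of ELOVL2 to ELOVL5, which act in turn on the route to DHA, was 0.270 ± 0.0425 for control (SD, n = 3), 0.274 ± 0.0361 for the DHA oil group (SD, n = 3) and 0.244 ± 0.050 for the fish oil group (SD, n = 4). That of ACSL4 to ACSL1 was 1.33 ± 0.183 for control (SD, n = 3), 1.37 ± 0.176 for the DHA oil group (SD, n = 3) and 1.47 ± 0.331 for the fish oil group (SD, n = 4). The smallest adjusted p over the 12 exact permutation tests was 0.870. The smallest p the test allows is 0.1 with 3 libraries against 3, 0.0286 with 4 against 3 and 0.00833 with 7 against 3. A single ratio at these limits would have an adjusted p of 1.00, 0.343 and 0.1, so no ratio could have passed alone, and the values stand as a description.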

How the data were processed

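RNA was measured in 10 libraries of flank tumour samples, 3 control, 3 DHA oil and 4 fish oil, grouped by their titles. The aligner was STAR with the genome GRCh38, and HTSeq 0.9.0 counted the reads, per the submitters' processing notes. Annotation release, strand setting, the handling of shared reads and whether mouse reads were removed are not given in those notes, so reads of host genes or of overlapping genes could be among the counts. As far as the values show, the authors deposited counts that are raw, as whole reads per gene with no normalisation.

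Gene symbols of the 10 genes came with the gene set. The reference tables at hand cover mouse and matched 0 of 33538 identifiers, so 6 pathway lists and 7 marker lists could not be tested, the rule naming further genes could not be applied, and no human sequence or position is shown. The genes and lists were chosen with earlier results of these data known.

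Genes were filtered with filterByExpr (minimum count 10) and scaled by TMM. A single model of all 10 libraries, with diet as factor, was fitted in edgeR 4.0.16 (R 4.3.3), and each comparison was read from its quasi-likelihood F test, with Benjamini-Hochberg adjustment over 16013 genes and a threshold of 0.05. The test was tried on simulated counts first. Intervals are 95% and use an SE derived from the F statistic. For log2 CPM the prior count was 2. Every gene of the set was to be named in every comparison. Alternatives were other scalings and filters, DESeq2 1.42.0, limma-voom (limma 3.58.1), fits restricted to the compared groups, a block for the replicate number, and each library left out. Leaving out fish oil replicates 2 and 4 together, and the within-library ratios, were chosen after seeing the data. The labels give no batch.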

Additional observations from a re-analysis of the deposited data

How the results depend on the processing

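The count of genes of the set called was 0 in each of the 4 comparisons under all alternatives run. Over all genes, calls depended on the processing. Without a filter for low counts, edgeR called 57 genes for DHA oil against control, 56 for fish oil against control, 14 between the oils and 76 for both oils against control, where the filtered counts were 0, 1, 0 and 21. DESeq2 called 11, 20 and 1 in the first 3 of these. limma-voom called 0 for fish oil against control and 1 for both oils, and the strict filter (CPM of at least 1 in all libraries) 0 and 0. For fish oil against control, library totals alone gave 0 and a fit of only the groups compared gave 7. With each library left out in turn the counts ran from 0 to 5 (DHA oil against control; 5 without control replicate 2), 0 to 22 (fish oil against control), 0 to 1 (between the oils) and 3 to 35 (both oils; 3 without control replicate 1, 35 without control replicate 2). Without fish oil replicates 2 and 4 they were 0 for fish oil and 0 for both oils against control. Pairs of genes past adjustment numbered 0 to 1 with each library left out, and the 1 was without fish oil replicate 3. The strongest r with a library left out was that of FADS3 and ELOVL4. It ran from -0.905 to -0.348, beside -0.602 over all libraries (permutation p = 0.0617, adjusted 0.370).

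The labels give no pairing by replicate number. Same-numbered libraries deviated from their group means with correlations of -0.17 to 0.18. These were not set beside correlations of differently numbered libraries, so a pairing was not tested. With the replicate number as a block, 1, 0 and 12 genes were called for DHA oil, fish oil and both oils against control. Only the fish oil group has a replicate 4, so the block fits that library alone and takes it out of the diet differences. Under the block FADS1 was -0.0645 and ELOVL4 -0.0758 in fish oil against control, and FADS3 was 0.0131 between the oils. For both oils against control, ELOVL5 (-0.000751) and ACSL4 (-0.000139) took the opposite sign. With fish oil replicate 4 left out and no block, these values were -0.0651, -0.0634, 0.0162, -0.000644 and 0.0116 in the same order.

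Of 790 log2 fold changes of the 10 genes under alternatives, 732 kept their sign, 58 did not, and 0 passed the adjusted threshold (smallest adjusted p = 0.414 in edgeR). With each library left out in turn the following crossed 0: in DHA oil against control FADS3 from -0.12 to 0.00932, ELOVL2 from -0.16 to 0.0776, ELOVL5 from -0.10 to 0.0232, ELOVL7 from -0.0225 to 0.40 and LPCAT3 from -0.00704 to 0.11. In fish oil against control FADS1 from -0.0758 to 0.16, FADS2 from -0.19 to 0.0386, ELOVL2 from -0.19 to 0.10, ELOVL4 from -0.0634 to 0.22, ELOVL7 from -0.0665 to 0.35 and ACSL1 from -0.0477 to 0.0976. In fish oil against DHA oil FADS2 from -0.0108 to 0.0974, FADS3 from -0.26 to 0.0162, ELOVL2 from -0.16 to 0.11, ELOVL4 from -0.24 to 0.0426, ELOVL7 from -0.14 to 0.0428 and LPCAT3 from -0.0329 to 0.0911. For both oils against control FADS1 from -0.20 to 0.036, FADS2 from -0.21 to 0.0184, ELOVL2 from -0.15 to 0.0912, ELOVL5 from -0.000644 to 0.0898, ELOVL7 from -0.0445 to 0.37 and ACSL1 from -0.11 to 0.0309. Library totals alone turned ELOVL2 to 0.0185 in fish oil against control and 0.00625 for both oils. Without fish oil replicates 2 and 4, fish oil against control became -0.11 for FADS1, 0.0418 for FADS3, -0.30 for ELOVL4, -0.0521 for ELOVL5, -0.0263 for ACSL1 and -0.14 for ACSL4. Fish oil against DHA oil became 0.0956 for FADS3, -0.28 for ELOVL2, -0.0111 for ELOVL5 and -0.0886 for ACSL4, and both oils against control became -0.0623 for ELOVL4, -0.0465 for ELOVL5 and -0.0914 for ACSL4. Differences of log2 ratios that crossed 0 ran from ELOVL2/ELOVL5 -0.0933 to 0.14 in DHA oil against control, ACSL4/ACSL1 -0.066 to 0.14 in DHA oil against control, ACSL4/ACSL1 -0.0331 to 0.22 in fish oil against DHA oil, FADS1/FADS2 -0.014 to 0.0851 in both oils against control, ELOVL2/ELOVL5 -0.20 to 0.0324 in both oils against control and ACSL4/ACSL1 -0.0156 to 0.19 in both oils against control. The cause of these changes was not tested. Depth limits ELOVL7 most, with 23 to 51 reads per library.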
